A study of Homo sapiens with 8 samples.

Results

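The genes described here drive or restrain entry into S phase, or take part in DNA replication, nucleotide supply, repair, chromatin assembly or polyamine synthesis. They comprise cyclins, cyclin-dependent kinases (CDKs), pocket proteins, E2F1 and CDK inhibitors, which are called G1/S control genes below, and replication enzymes and factors, together with ornithine decarboxylase (ODC1). Members were taken by symbol: a probe set counted if the platform annotation gave it exactly 1 gene symbol and that symbol was on a list of 46. This found 42 genes on 43 probe sets, out of 7713 genes on 7840 such probe sets in the table. MCM4, MCM7, CCNE1 and CDKN2C were not analysed here. All 42 genes passed the filter on low signals, 30 of 32 listed replication genes and 12 of 14 listed control genes. In counts and medians below, ODC1 is counted with the replication genes. RFC1 had a further probe set that stayed low on all 8 arrays and was not tested.

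Total RNA was measured on Affymetrix HG-Focus arrays, 2 in each of 4 groups. These were ZR75-1 cells transfected with a plasmid carrying HSD17B14, ZR75-1 cells given empty vector, cells labelled SKBR3 with the HSD17B14 plasmid, and cells labelled SKBR3 with empty vector. ZR75-1 is a breast cancer line labelled ER-positive and SKBR3 one labelled ER-negative. HSD17B14 encodes a hydroxysteroid dehydrogenase. Both lines grew in phenol-red free Optimem-I with 4% foetal bovine serum, received plasmid and FuGene-6 reagent 24 h after they were seeded, and RNA was taken 48 h later. The labels do not say whether the arrays of a group came from separate cultures, so the p-values measure only the spread between these arrays. The expression was transient, and the share of cells that took up a plasmid is not given in the sources used here.

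Progress from G1 to S phase is set by cyclin D with CDK4 or CDK6 and by cyclin E with CDK2. These kinases phosphorylate the retinoblastoma protein and its relatives, which releases E2F factors, and E2F then drives transcription of many replication genes. The CDK inhibitors p21 (CDKN1A), p27 (CDKN1B) and p16 (CDKN2A) hold the kinases in check. In breast cancer cells that depend on estrogen, cyclin D1 (CCND1) is a known target of estrogen signalling. At the origins, ORC, CDC6 and the MCM helicase license DNA for replication. RPA, polymerases, the PCNA clamp and its RFC loader then copy it, and FEN1 and LIG1 join the lagging-strand fragments.

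The plasmid's own transcript bore out the plasmid labels on all 8 arrays. HSD17B14 read 107.5 and 135.3 on the ZR75-1 HSD17B14 arrays, against 17.8 and 2.1 on the ZR75-1 vector arrays (limma, Benjamini-Hochberg adjusted p = 0.0296). That call was lost under 7 of 20 alternatives, among them without either ZR75-1 HSD17B14 array or either SKBR3-labelled HSD17B14 array. The ZR75-1 log2 change ran from 1.89 to 5.84 over the 20. HSD17B14 read 650.7 and 743.6 on the SKBR3-labelled HSD17B14 arrays, against 2 and 4.2 on their vector arrays (limma adjusted p = 1.42e-04). This call was lost under 1 of 20 alternatives, with log2 changes from 4.37 to 8.44. ERBB2, which is amplified in SKBR3, read 110.9, 95.9, 226 and 141.2 in ZR75-1 and only 33.6, 46.8, 25.9 and 33.8 in the cells labelled SKBR3, which goes against that label. They are therefore called SKBR3-labelled throughout, and every line comparison below rests on that label. The 8 epithelial and luminal markers on the array were above the floor in both lines on at least 1 array each. Their summed signals were 19272.1 to 22082.5 in ZR75-1 and 5708.3 to 7305.6 in the SKBR3-labelled cells. Each of the 8 was higher in ZR75-1 without overlap. ESR1, the estrogen receptor gene, read 194.5 to 341.6 in ZR75-1. In the SKBR3-labelled cells ESR1 read 24.6, 16, 24.4 and 14.9, at or near the floor, which goes with their ER-negative label. Other luminal markers were far above the floor in these cells, with TFF1 at 962.4 to 1073.3 and GATA3 at 284 to 416.4. CDH1 read 1074.7 to 1508.4 in ZR75-1 and 26.8 to 58.1 in the SKBR3-labelled cells. Basal, fibroblast, leukocyte and endothelial lists summed to 2.1 to 73.9 per array. Of their genes, COL1A1 was above the floor on all 4 ZR75-1 arrays (21.8 to 50.4) and on no SKBR3-labelled array (3.4 to 14.4). The others were above it on at most 1 array each. The actin ratio of 3′ to 5′ probe sets, a sign of RNA or cRNA integrity, moved with the plasmid in ZR75-1 (2.83 and 2.66 with HSD17B14, 2.03 and 2.02 with vector). It was 2.28 and 3.09 with HSD17B14 and 3.6 and 3 with vector in the SKBR3-labelled cells. In a bulk RNA sample, a change in the share of cells in a cycle phase and a change in RNA per cell cannot be told apart.

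Promoter sequence is shown for the genes whose plasmid effect passed the test, and for members that carry an E2F motif ahead of their start. Of the 42 genes, 36 matched a RefSeq promoter (GRCh38.p14, 250 bases before to 50 after the start; 51 promoters in all). MCM5, RPA2, RPA3, CCND1, CDK2 and CCNE2 had no match. The bases ahead of the CDKN1B start (chr12:12717118-12717367, plus strand) have CCAAT boxes in capitals, and those ahead of an ODC1 start (chr2:10448328-10448577, minus strand) have GC boxes (GGGCGG or its complement) in capitals. Both run 5′ to 3′ along the gene's strand.
CDKN1B: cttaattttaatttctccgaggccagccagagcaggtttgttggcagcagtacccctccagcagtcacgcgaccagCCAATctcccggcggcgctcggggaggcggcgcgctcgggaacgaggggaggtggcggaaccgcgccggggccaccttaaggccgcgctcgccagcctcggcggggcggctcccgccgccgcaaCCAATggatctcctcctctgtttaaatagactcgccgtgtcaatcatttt
ODC1: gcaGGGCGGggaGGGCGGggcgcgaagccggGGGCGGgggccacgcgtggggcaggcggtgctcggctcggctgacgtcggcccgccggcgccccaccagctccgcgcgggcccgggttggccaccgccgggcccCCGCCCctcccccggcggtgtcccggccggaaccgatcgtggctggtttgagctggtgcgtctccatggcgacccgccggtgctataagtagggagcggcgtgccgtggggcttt

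The E2F motif was searched on both strands as TTTCGCGC, TTTGGCGC, TTTCCCGC and TTTGCCGC, which can share bases with each other on opposite strands and with a GC box. It was found in 14 of 36 member genes (38.9%), against 369 of 6209 array genes with a promoter (5.94%) and 1164 of all 35116 promoters in the table (3.31%). The 14 genes were MCM2, MCM3, MCM6, CDC6, PCNA, RFC3, POLA2, POLE2, LIG1, TYMS, UNG, MSH6, E2F1 and RBL1. For the 10 with a motif that ends before the start, the stretch around the one nearest the start is given, with motif letters in capitals. MCM6 has further matches ahead of that stretch, from bases -152 and -148, which are not shown. A match describes the letters and is not a site shown to be bound.
MCM3 (chr6:52284889-52284936, minus strand): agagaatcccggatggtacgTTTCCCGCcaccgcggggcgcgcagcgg
MCM6 (chr2:135876502-135876553, minus strand): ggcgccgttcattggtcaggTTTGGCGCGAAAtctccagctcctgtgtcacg
PCNA (chr20:5126654-5126701, minus strand): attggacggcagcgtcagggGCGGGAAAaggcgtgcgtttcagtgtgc
RFC3 (chr13:33818074-33818121, plus strand): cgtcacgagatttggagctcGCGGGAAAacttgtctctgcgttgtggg
POLA2 (chr11:65261889-65261936, plus strand): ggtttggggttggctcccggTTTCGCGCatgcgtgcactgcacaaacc
LIG1 (chr19:48170431-48170478, minus strand): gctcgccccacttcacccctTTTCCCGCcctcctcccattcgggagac
TYMS (chr18:657594-657641, plus strand): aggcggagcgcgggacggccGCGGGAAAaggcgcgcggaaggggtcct
UNG (chr12:109098089-109098136, plus strand): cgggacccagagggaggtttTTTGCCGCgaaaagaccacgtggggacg
E2F1 (chr20:33686386-33686438, minus strand): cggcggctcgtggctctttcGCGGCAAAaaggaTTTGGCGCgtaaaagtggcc
RBL1 (chr20:37095998-37096043, minus strand): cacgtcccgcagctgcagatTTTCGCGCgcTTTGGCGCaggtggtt

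Further letter runs, searched after the E2F result was known, set the members less far apart. The CCAAT box was in 19 of 36 member genes (52.8%, against 44.2% of array genes and 34.6% of promoters). GGGCGG was in 27 (75%, against 67.7% and 45%) and the E-box CACGTG in 8 (22.2%, against 11.5% and 7.26%).

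Few of the 42 genes passed the test for the plasmid, and most differed between the lines. CDKN1B was higher with HSD17B14 when both lines were averaged, and ODC1 was lower with HSD17B14 in the SKBR3-labelled cells. In ZR75-1, limma with Benjamini-Hochberg adjustment over all 6251 tested probe sets called 0 of 42 members at an adjusted p under 0.05, where it called 1.52% of all tested probe sets. At an unadjusted p under 0.05, 3 members were higher (CDKN1B, RFC5 and POLE2) and 6 lower in ZR75-1, against 8.35% and 9.61% of all probe sets. In the SKBR3-labelled cells 1 member was called, against 0.992% of probe sets. There 2 were higher and 3 lower at an unadjusted p under 0.05, against 4.96% and 3.82%. Over both lines 1 member was called, against 1.5%. These shares are close to the background, so the counts for the plasmid say nothing particular about the members. Between the lines 28 of 42 members were called (66.7%), against 49.2% of all tested probe sets.

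Without overlap between the arrays of a line, 8 members were higher and 14 lower with HSD17B14 in ZR75-1, against 20.7% and 26.3% of all probe sets. In the SKBR3-labelled cells 9 were higher and 7 lower, against 19.5% and 20.6%. Only CDKN1B was higher and only E2F1 was lower without overlap in both lines (4.82% and 5.26% of all probe sets). The members' median log2 change in ZR75-1 was -0.14, against -0.05 over all tested genes, but it was 0.06, against 0.16 over all genes, when each array was centred on its median. In the SKBR3-labelled cells it was 0.02, against -0.01 over all tested genes, and it was -0.02 with quantile normalization and 0.10 with median centring. The 12 control genes had a median of -0.36 in ZR75-1 (-0.27 with quantile normalization and -0.16 with median centring), with 8 of 12 below 0 under all of these scalings. In the SKBR3-labelled cells the control genes' median was 0.23 (0.18 and 0.30 under those scalings), with 8 of 12 above 0. These medians and counts include 1 gene under the floor on every array of the line. It was CDK6 in ZR75-1 and CDKN2A in the SKBR3-labelled cells.

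**Figure D1:**
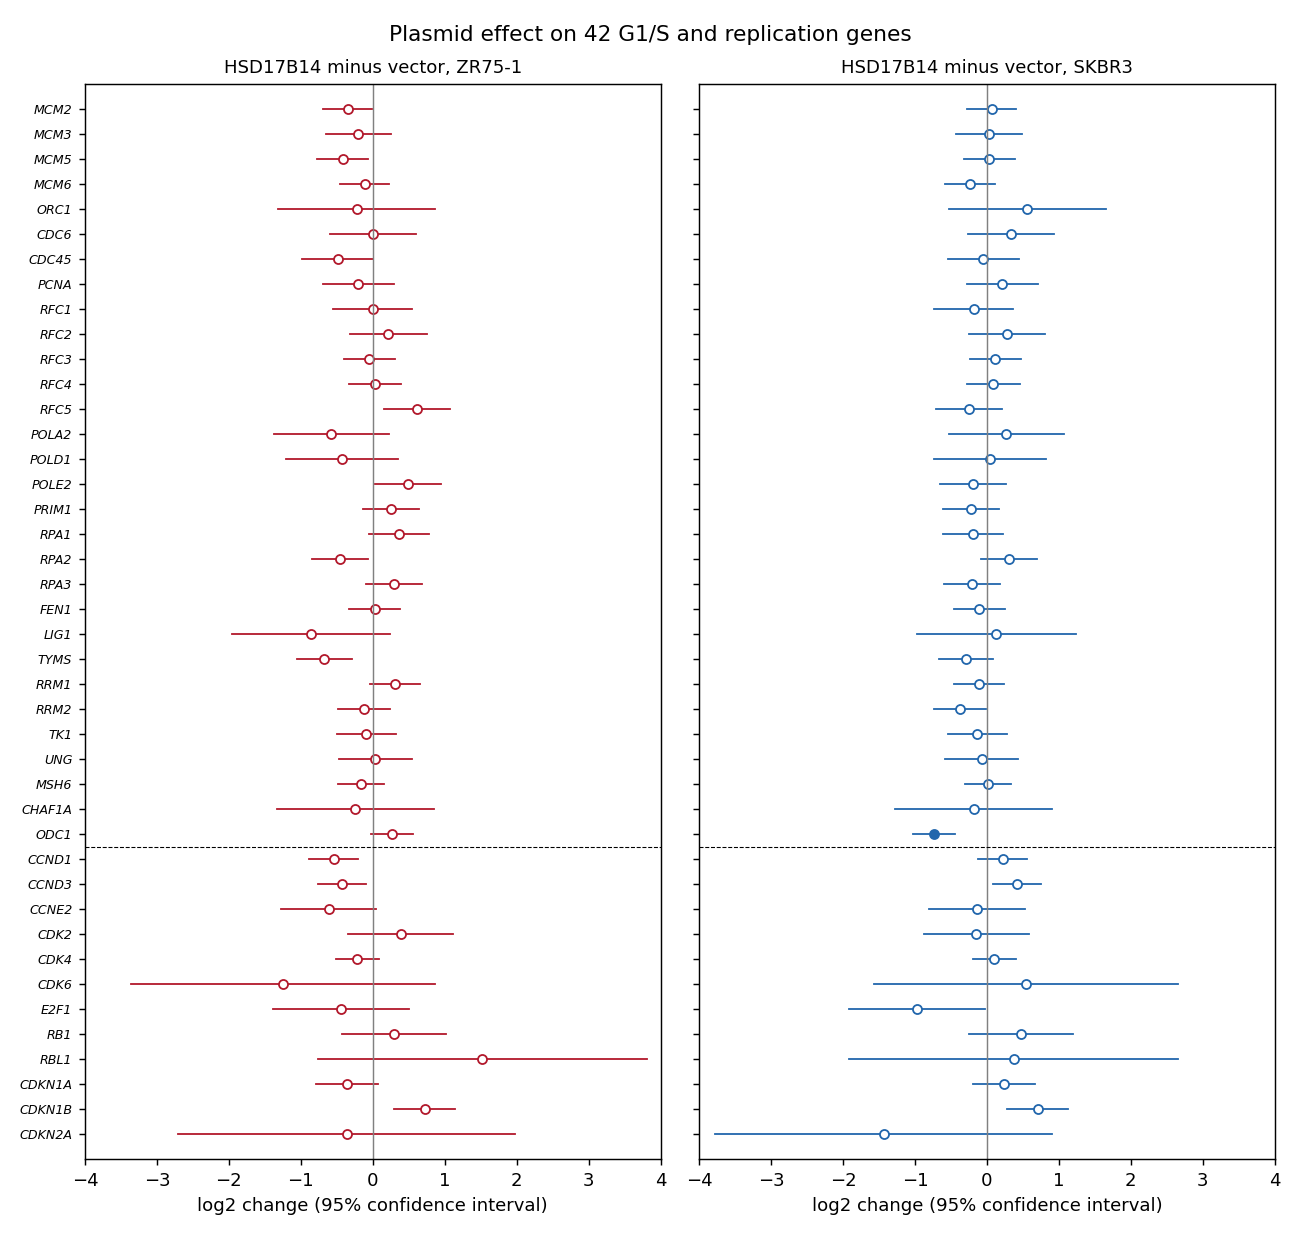
Log2 change with HSD17B14 against vector for the 42 genes in ZR75-1 (left) and the SKBR3-labelled cells (right), with 95% confidence intervals from limma; replication genes stand above the dashed line and control genes below it. The filled point, ODC1 at -0.74 in the SKBR3-labelled cells, is the 1 member that passed the test within a line.

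Among the CDK inhibitors, CDKN1B rose with HSD17B14. Its protein, p27, binds and inhibits the cyclin E and CDK2 complex. CDKN1B read 224.4 and 268.9 on the ZR75-1 HSD17B14 arrays, against 154.6 and 143.1 on the ZR75-1 vector arrays. It read 158 and 163.1 on the SKBR3-labelled HSD17B14 arrays, against 85.2 and 113.8 on the SKBR3-labelled vector arrays. In each line both HSD17B14 arrays were above both vector arrays. The averaged log2 change was 0.71 ± 0.14 (SE, 4 arrays against 4), 1.64-fold, with a limma adjusted p of 0.0217. Within ZR75-1 the change was 0.72 ± 0.19 (adjusted p = 0.0814) and within the SKBR3-labelled cells 0.71 ± 0.19 (adjusted p = 0.192), so neither line passed alone. The difference between the effects in the lines was 0.02 (95% confidence interval -0.58 to 0.62). The averaged call was lost when 6 of the 8 arrays were left out in turn (adjusted p from 0.0511 to 0.120) and held without the first ZR75-1 HSD17B14 array (0.0487) or the second SKBR3-labelled vector array (0.00914). It was also lost with median centring (0.0584), a common floor (0.0735) or a prior without trend (0.177).

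CDKN1A, which encodes p21, had another pattern. It read 296.8 and 282.4 on the ZR75-1 HSD17B14 arrays, against 370.4 and 372.7 on the ZR75-1 vector arrays, where both HSD17B14 arrays were the lower ones. CDKN1A read 208 and 204.5 on the SKBR3-labelled HSD17B14 arrays, against 219.7 and 139.8 on the SKBR3-labelled vector arrays, and there the groups overlapped. Its log2 change was -0.36 ± 0.20 in ZR75-1 (adjusted p = 0.370) and 0.23 ± 0.20 in the SKBR3-labelled cells (adjusted p = 0.874). CDKN2A, which encodes p16 and p14ARF, read 18.7 and 16.7 on the ZR75-1 HSD17B14 arrays, against 25.5 and 20.2 on the ZR75-1 vector arrays. It read 0.6 and 12 on the SKBR3-labelled HSD17B14 arrays, against 10.1 and 8.7 on the SKBR3-labelled vector arrays, all under 17.6, the highest of the arrays' 40th percentiles and taken here as the floor. No fold change of CDKN2A is given for the SKBR3-labelled cells for that reason.

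Cyclin D1 and cyclin D3 had the same pattern as each other. CCND1 read 298.5 and 280.8 on the ZR75-1 HSD17B14 arrays, against 471.4 and 378.5 on the ZR75-1 vector arrays. It read 261.5 and 240.4 on the SKBR3-labelled HSD17B14 arrays, against 224.5 and 207.4 on the SKBR3-labelled vector arrays. CCND3 read 140.9 and 147.1 on the ZR75-1 HSD17B14 arrays, against 197.7 and 189 on the ZR75-1 vector arrays. The SKBR3-labelled arrays of CCND3 read 299.3 and 326.4 with HSD17B14, against 245.1 and 224.7 with vector. For both genes the HSD17B14 arrays were lower without overlap in ZR75-1 and higher without overlap in the SKBR3-labelled cells. The CCND1 change was -0.54 ± 0.16 in ZR75-1 (limma adjusted p = 0.0968) and 0.22 ± 0.16 in the SKBR3-labelled cells (0.823). The CCND3 change was -0.43 ± 0.15 (0.166) and 0.41 ± 0.15 (0.441). The test of the difference between the lines gave -0.76 ± 0.22 for CCND1 (adjusted p = 0.183) and -0.84 ± 0.21 for CCND3 (0.135), so no difference passed. CDK4, the catalytic partner of the D cyclins, read 555.9 and 609.5 on the ZR75-1 HSD17B14 arrays, against 629.1 and 722.7 on the ZR75-1 vector arrays. CDK4 read 415.9 and 419 on the SKBR3-labelled HSD17B14 arrays, against 398.4 and 381.3 on the SKBR3-labelled vector arrays. It was thus lower without overlap in ZR75-1 and higher without overlap in the SKBR3-labelled cells, but the sizes were small, -0.21 ± 0.14 (adjusted p = 0.449) and 0.10 ± 0.14 (0.954).

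Cyclin E2 and its kinase did not pass either. CCNE2 read 32.9 and 35.5 on the ZR75-1 HSD17B14 arrays, against 62.6 and 43.5 on the ZR75-1 vector arrays, a log2 change of -0.61 ± 0.30 (limma adjusted p = 0.317). It read 65.4 and 65.6 on the SKBR3-labelled HSD17B14 arrays, against 81 and 64.1 on the SKBR3-labelled vector arrays. The ZR75-1 groups of CCNE2 did not overlap and the SKBR3-labelled groups did. CDK2 read 62.6 and 52 on the ZR75-1 HSD17B14 arrays, against 41.3 and 46.1 on the ZR75-1 vector arrays, higher without overlap, with a change of 0.39 ± 0.33 (adjusted p = 0.583). In the SKBR3-labelled cells CDK2 read 62.4 and 76.4 with HSD17B14, against 104.9 and 55.6 with vector. CDK6, the other D-cyclin kinase, read 2.3 and 10.8 on the ZR75-1 HSD17B14 arrays, against 10.4 and 13.5 on the ZR75-1 vector arrays, all under the floor. The SKBR3-labelled arrays of CDK6 read 13.6 and 21.1 with HSD17B14, against 19.7 and 6.9 with vector, where 1 array of each group was above the floor.

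E2F1, an activating E2F factor, read 42.2 and 33.2 on the ZR75-1 HSD17B14 arrays, against 52.5 and 49 on the ZR75-1 vector arrays. It read 14.5 and 28.9 on the SKBR3-labelled HSD17B14 arrays, against 47.9 and 33.6 on the SKBR3-labelled vector arrays. The HSD17B14 arrays were the lower ones in both lines, 1 of them under the floor. The averaged log2 change was -0.70 ± 0.31 and did not pass (limma unadjusted p = 0.0408, adjusted p = 0.319). RB1, the retinoblastoma gene, read 55.9 and 54.7 on the ZR75-1 HSD17B14 arrays, against 57.1 and 35.6 on the ZR75-1 vector arrays. RB1 read 89.7 and 83.3 on the SKBR3-labelled HSD17B14 arrays, against 48.7 and 79.7 on the SKBR3-labelled vector arrays. The RB1 groups overlapped in ZR75-1 and were higher with HSD17B14 in the SKBR3-labelled cells (0.47 ± 0.33, adjusted p = 0.802). RBL1, which encodes p107, read 19.2 and 11.6 on the ZR75-1 HSD17B14 arrays, against 1.6 and 16.9 on the ZR75-1 vector arrays. Its SKBR3-labelled arrays read 14.5 and 22.3 with HSD17B14, against 19.1 and 10.1 with vector. RBL1 was above the floor on 3 of 8 arrays, and its groups overlapped in both lines.

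**Figure D2:**
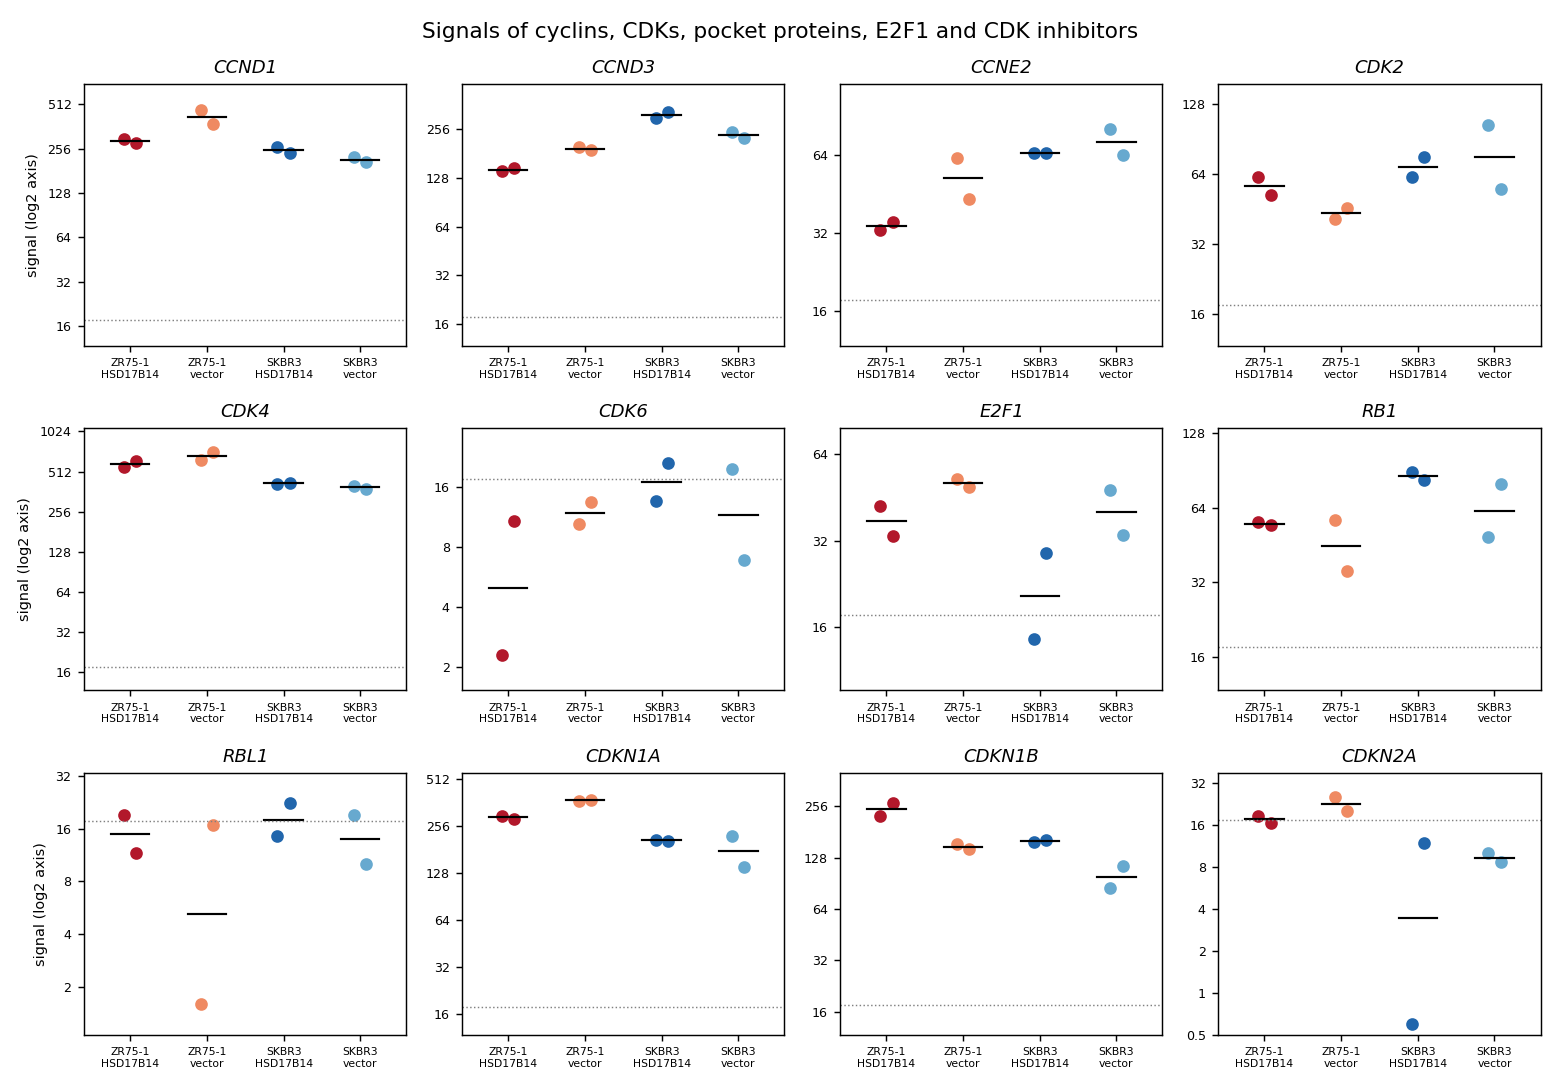
Signals of the 12 control genes on every array (log2 axis), 2 points a group with a bar at the mean of the log2 values; the dotted line is the common floor of 17.6. For CDKN1B both HSD17B14 points lie above both vector points in each line, and for E2F1 they lie below.

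ODC1 was the only member that passed the test for the plasmid within a line. It encodes ornithine decarboxylase, the rate-limiting enzyme of polyamine synthesis, which is induced when cells are stimulated to grow. ODC1 read 1074 and 1117.6 on the SKBR3-labelled HSD17B14 arrays, against 1873.7 and 1777.7 on the SKBR3-labelled vector arrays. It read 173.3 and 154.5 on the ZR75-1 HSD17B14 arrays, against 139.7 and 133 on the ZR75-1 vector arrays. The HSD17B14 arrays were lower without overlap in the SKBR3-labelled cells and higher without overlap in ZR75-1. ODC1 fell with HSD17B14 in the SKBR3-labelled cells, by a log2 change of -0.74 ± 0.13, 1.67-fold (limma adjusted p = 0.0201), where 0.048% of all probe sets were called lower. The ZR75-1 change was 0.26 ± 0.13 and did not pass (adjusted p = 0.332).

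The difference of the ODC1 effects, ZR75-1 minus SKBR3-labelled, was 1.00 ± 0.19 (limma adjusted p = 0.0441), the only one of 42 members to pass that test, which called 0.624% of all probe sets. That call was lost when any 1 of the 8 arrays was left out (0.92 to 1.08, adjusted p from 0.0578 to 0.318). The call within the SKBR3-labelled cells was lost without the first (-0.71, adjusted p = 0.318) or the second HSD17B14 array (-0.76, 0.209) or the first vector array (-0.70, 0.116). With the actin ratio as a covariate the change there was -0.67 (adjusted p = 0.522), and with median centring -0.66 (0.211). Of 8 other genes of polyamine metabolism 7 were tested (AMD1, SRM, SMS, OAZ1, OAZ2 and AZIN1 among them), and limma called 0 for the plasmid in either line, against 1.52% of all probe sets in ZR75-1 and 0.992% in the SKBR3-labelled cells. At an unadjusted p under 0.05, 2 of the 7 were lower in ZR75-1 (9.61% of all probe sets) and 0 in the SKBR3-labelled cells (3.82%). AZIN1, which encodes an inhibitor of the antizymes that degrade ornithine decarboxylase, had a limma log2 change of -0.50 ± 0.15 in ZR75-1 (adjusted p = 0.102) on the probe set used. Its other probe set went the other way there, with 143.5 and 144.7 on the HSD17B14 arrays, against 134.3 and 96.4 on the vector arrays. SRM, spermidine synthase, had one of -0.49 ± 0.18 in ZR75-1 (0.178) and of -0.37 ± 0.18 in the SKBR3-labelled cells (0.583).

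Of the nucleotide supply genes, TYMS came nearest to the threshold. It encodes thymidylate synthase, which makes thymidylate for DNA. TYMS read 516.4 and 641.5 on the ZR75-1 HSD17B14 arrays, against 960.2 and 875.5 on the ZR75-1 vector arrays. It read 1252.5 and 1450.3 on the SKBR3-labelled HSD17B14 arrays, against 1887.7 and 1432.9 on the SKBR3-labelled vector arrays. Both ZR75-1 HSD17B14 arrays were below both vector arrays, and the SKBR3-labelled groups overlapped. The ZR75-1 change was -0.67 ± 0.17, 1.59-fold, with a limma adjusted p of 0.0740, and the averaged change was -0.48 ± 0.12 (0.0924). TYMS passed in ZR75-1 when 32 was added to each signal (0.0388) or ZR75-1 was fitted alone (0.0350), and over both lines without the second SKBR3-labelled vector array (-0.58, 0.0365).

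RRM2 encodes the small subunit of ribonucleotide reductase and RRM1 the large one. RRM2 read 2051 and 1653.5 on the ZR75-1 HSD17B14 arrays, against 1835.4 and 2200.2 on the ZR75-1 vector arrays. It read 1353.4 and 1375.8 on the SKBR3-labelled HSD17B14 arrays, against 1944.3 and 1613.9 on the SKBR3-labelled vector arrays. RRM2 overlapped in ZR75-1 and was lower without overlap with HSD17B14 in the SKBR3-labelled cells (-0.38 ± 0.16, limma adjusted p = 0.547). RRM1 read 258 and 321.2 (HSD17B14) and 239.9 and 225.2 (vector) in ZR75-1, and 453.7 and 535.7 (HSD17B14) and 513.7 and 552.5 (vector) in the SKBR3-labelled cells, a plasmid change of 0.31 ± 0.16 in ZR75-1 (0.335). TK1, thymidine kinase, spanned 179.2 to 203.3 on the ZR75-1 arrays and 140 to 195.6 in the SKBR3-labelled cells and overlapped in both.

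**Figure D3:**
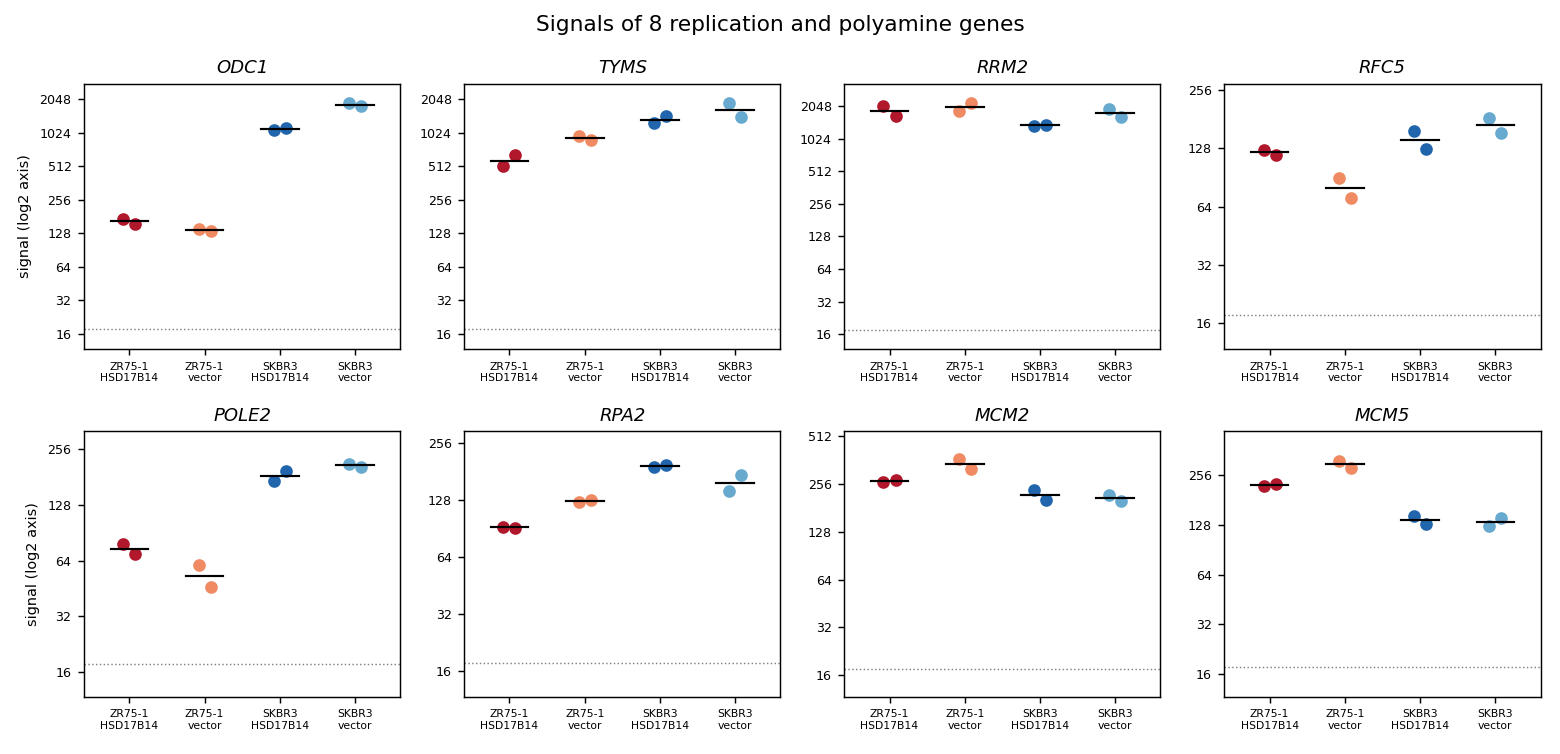
Signals of ODC1 and 7 further genes counted as replication genes on every array (log2 axis). Each group has 2 points with a bar at the mean of the log2 values. The dotted line is the common floor of 17.6. ODC1 lies between 133 and 173.3 in ZR75-1 and between 1074 and 1873.7 in the SKBR3-labelled cells, where its HSD17B14 points are the lower ones.

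The MCM helicase, which unwinds DNA at the fork, was represented by 4 of its 6 subunits. All 4 had fitted changes below 0 in ZR75-1 (-0.42 to -0.11), but with median centring only 2 of 4 did. MCM5 read 219.3 and 224.8 (HSD17B14) and 312.4 and 282.1 (vector) in ZR75-1, and 144.8 and 128.7 (HSD17B14) and 126.1 and 140.9 (vector) in the SKBR3-labelled cells. MCM2 read 261.7 and 271.2 (HSD17B14) and 364.5 and 315.5 (vector) in ZR75-1, and 233.4 and 203.5 (HSD17B14) and 218.2 and 198.6 (vector) in the SKBR3-labelled cells. MCM6 read 284 and 289.1 (HSD17B14) and 349.9 and 274.2 (vector) in ZR75-1, and 270.4 and 287.5 (HSD17B14) and 314.4 and 341.8 (vector) in the SKBR3-labelled cells. MCM5 (-0.42 ± 0.16, limma adjusted p = 0.203) and MCM2 (-0.35 ± 0.16, 0.266) were lower without overlap in ZR75-1, and MCM6 was lower without overlap in the SKBR3-labelled cells (-0.23 ± 0.16, 0.787). MCM3 read 77.5 and 97.3 (HSD17B14) and 118.2 and 84 (vector) in ZR75-1, and 315.9 and 263.8 (HSD17B14) and 293.3 and 275.4 (vector) in the SKBR3-labelled cells. Its groups overlapped in both lines. Between the lines the subunits went in different directions: MCM5 (0.93 ± 0.11, adjusted p = 3.53e-05) and MCM2 (0.50 ± 0.11, 0.00266) were higher in ZR75-1 and MCM3 was lower (-1.62 ± 0.15, 2.86e-06). The MCM2 call ended with the HSD17B14 arrays alone (0.29, 0.184) or with the actin ratio as a covariate (0.43, 0.127). The MCM6 difference was -0.02 (95% confidence interval -0.26 to 0.22).

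For origin licensing and firing, CDC45, which joins MCM and GINS in the active helicase, read 124.1 and 103.1 (HSD17B14) and 172.2 and 145.9 (vector) in ZR75-1, and 88.7 and 102.6 (HSD17B14) and 116.7 and 83.5 (vector) in the SKBR3-labelled cells. CDC45 was lower with HSD17B14 without overlap in ZR75-1 only (-0.49 ± 0.23, limma adjusted p = 0.284). CDC6, which loads MCM, read 42.9 and 72.5 (HSD17B14) and 58.1 and 53.2 (vector) in ZR75-1, and 121.3 and 121.4 (HSD17B14) and 93.9 and 98.9 (vector) in the SKBR3-labelled cells. ORC1, the largest subunit of the origin recognition complex, read 16.1 and 13.9 (HSD17B14) and 15.9 and 19.1 (vector) in ZR75-1, and 40.8 and 43.2 (HSD17B14) and 21.4 and 38 (vector) in the SKBR3-labelled cells. Both genes were higher with HSD17B14 without overlap in the SKBR3-labelled cells (CDC6 0.33 ± 0.27, 0.874, ORC1 0.56 ± 0.50, 0.896), and the ZR75-1 HSD17B14 arrays of ORC1 were under the floor. Between the lines CDC6 (-0.96 ± 0.19, adjusted p = 0.00142) and ORC1 (adjusted p = 0.0222) were lower in ZR75-1, and CDC45 was higher (0.46 ± 0.16, 0.0305). No size is given for ORC1, which was under the floor on 3 of 4 ZR75-1 arrays. Its call was lost with the vector arrays alone (0.290), with the actin covariate (0.149), and without the first (0.0809) or second (0.0921) SKBR3-labelled HSD17B14 array or the second vector array there (0.0719). The CDC45 call was lost under 8 of 21 alternatives (0.25 to 0.76 over all 21). Among these it was lost without the first ZR75-1 HSD17B14 or vector array, either SKBR3-labelled HSD17B14 array or the second SKBR3-labelled vector array. With the HSD17B14 arrays alone the CDC45 difference was 0.25 (limma adjusted p = 0.449).

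The clamp PCNA, which tethers the polymerases, read 455.6 and 503.5 (HSD17B14) and 441.2 and 689.7 (vector) in ZR75-1, and 603.7 and 492.4 (HSD17B14) and 392.9 and 563.1 (vector) in the SKBR3-labelled cells. Its groups overlapped in both lines, and the difference between the lines was 0.02 (95% confidence interval -0.33 to 0.37). Among the subunits of its loader, RFC5 read 125.6 and 118.9 (HSD17B14) and 90.1 and 71 (vector) in ZR75-1, and 157.8 and 127.1 (HSD17B14) and 184.9 and 153.6 (vector) in the SKBR3-labelled cells. RFC5 was higher with HSD17B14 without overlap in ZR75-1 (0.61 ± 0.21, limma adjusted p = 0.152) and overlapped in the SKBR3-labelled cells. RFC4 read 178.7 and 205.6 (HSD17B14) and 172.4 and 204.7 (vector) in ZR75-1, and 332.2 and 352.9 (HSD17B14) and 292.8 and 353.1 (vector) in the SKBR3-labelled cells. RFC3 read 215.4 and 264.4 (HSD17B14) and 251.1 and 242 (vector) in ZR75-1, and 188 and 180 (HSD17B14) and 168.2 and 170.8 (vector) in the SKBR3-labelled cells. RFC5 (-0.64 ± 0.15, 0.00338) and RFC4 (-0.81 ± 0.12, 1.32e-04) were lower in ZR75-1 than in the SKBR3-labelled cells, and RFC3 was higher (0.46 ± 0.11, 0.00548). With the HSD17B14 arrays alone RFC5 was at -0.21 (0.483) and RFC3 at 0.38 (0.0978), and with the actin covariate at -0.71 (0.0642) and 0.39 (0.186), so neither call held there. RFC1 and RFC2 did not pass any test, with signals of 66 to 94.6 in ZR75-1 and 69.6 to 125.9 in the SKBR3-labelled cells.

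Of the polymerase and primase subunits, POLE2, the second subunit of polymerase epsilon, read 78.8 and 69.9 (HSD17B14) and 60.6 and 45.9 (vector) in ZR75-1, and 173.7 and 195.5 (HSD17B14) and 213.8 and 206.2 (vector) in the SKBR3-labelled cells. It was higher with HSD17B14 without overlap in ZR75-1 (0.49 ± 0.21, limma adjusted p = 0.242) and lower without overlap in the SKBR3-labelled cells (-0.19 ± 0.21, 0.923). PRIM1, the catalytic primase subunit, read 150.1 and 126.7 (HSD17B14) and 110.9 and 119.7 (vector) in ZR75-1, and 163.5 and 158.9 (HSD17B14) and 199.8 and 176.8 (vector) in the SKBR3-labelled cells. PRIM1 had the same directions, without overlap (0.26 ± 0.18, 0.480, and -0.22 ± 0.18, 0.869). POLA2, the regulatory subunit of polymerase alpha, read 58.6 and 60.8 (HSD17B14) and 80.6 and 98.7 (vector) in ZR75-1, and 39.6 and 27.8 (HSD17B14) and 36.8 and 20.7 (vector) in the SKBR3-labelled cells. POLE2 (-1.65 ± 0.15, adjusted p = 2.39e-06) and PRIM1 (-0.47 ± 0.13, 0.00882) were lower in ZR75-1 than in the SKBR3-labelled cells, whereas POLA2 was higher (1.27 ± 0.26, 0.00150). The PRIM1 call ended with the HSD17B14 arrays alone (-0.23, 0.370) or the actin covariate (-0.41, 0.210), as did the POLA2 call (0.85, 0.0999, and 1.26, 0.0600). POLD1, the catalytic subunit of polymerase delta, spanned 50.9 to 102.6 on the ZR75-1 arrays and 43.2 to 61.9 in the SKBR3-labelled cells and passed no test.

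The fitted changes of the subunits of the single-strand binding protein RPA did not share 1 direction, either with the plasmid or between the lines. For the plasmid no RPA subunit passed in either line. RPA2 read 92.9 and 91.7 (HSD17B14) and 124.7 and 128.9 (vector) in ZR75-1, and 191.7 and 197.2 (HSD17B14) and 143 and 173 (vector) in the SKBR3-labelled cells. RPA2 was lower with HSD17B14 without overlap in ZR75-1 (-0.46 ± 0.18, limma adjusted p = 0.205) and higher without overlap in the SKBR3-labelled cells (0.31 ± 0.18, 0.718). RPA1, the largest subunit, read 134.7 and 174.8 (HSD17B14) and 137.4 and 103.3 (vector) in ZR75-1, and 492.3 and 455 (HSD17B14) and 494.6 and 587.5 (vector) in the SKBR3-labelled cells. RPA3, the smallest subunit, read 932.5 and 865.5 (HSD17B14) and 631.6 and 844.9 (vector) in ZR75-1, and 643.4 and 535.2 (HSD17B14) and 604.7 and 755.1 (vector) in the SKBR3-labelled cells. Between the lines RPA1 (-1.90 ± 0.13, 3.74-fold, adjusted p = 3.72e-07) and RPA2 (-0.69 ± 0.13, 6.95e-04) were lower in ZR75-1 and RPA3 was higher (0.36 ± 0.12, 0.0309). The RPA2 call ended with the vector arrays alone (-0.31, 0.194). The RPA3 groups of the lines overlapped, and its call was lost under 11 of 21 alternatives (0.11 to 0.61 over all 21, adjusted p up to 0.685). Among these it was lost without either ZR75-1 HSD17B14 array, the second ZR75-1 vector array, the second SKBR3-labelled HSD17B14 array or the first SKBR3-labelled vector array (0.0540 to 0.131). FEN1, the flap nuclease, read 125.7 and 130.6 (HSD17B14) and 121.1 and 130.9 (vector) in ZR75-1, and 412.3 and 403.6 (HSD17B14) and 492.8 and 392 (vector) in the SKBR3-labelled cells. It was lower in ZR75-1 (-1.74 ± 0.11, 3.33-fold, 2.09e-07), and the plasmid change was 0.03 ± 0.16 there. LIG1, DNA ligase, read 13.8 on 1 ZR75-1 HSD17B14 array and 44.5 to 58 on the other 7 arrays and passed no test.

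MSH6, of the mismatch recognition complex, read 198.1 and 184.9 (HSD17B14) and 203.1 and 225.5 (vector) in ZR75-1, and 303.6 and 295.5 (HSD17B14) and 289.3 and 302.1 (vector) in the SKBR3-labelled cells. UNG, the uracil DNA glycosylase, read 70.9 and 97.2 (HSD17B14) and 85.8 and 76.5 (vector) in ZR75-1, and 115.1 and 127.3 (HSD17B14) and 143.7 and 112.2 (vector) in the SKBR3-labelled cells. CHAF1A, the large subunit of chromatin assembly factor, read 28.9 and 15.7 (HSD17B14) and 25.5 and 24.9 (vector) in ZR75-1, and 22.2 and 26.8 (HSD17B14) and 32.3 and 23.8 (vector) in the SKBR3-labelled cells. MSH6 was lower with HSD17B14 without overlap in ZR75-1 (-0.16 ± 0.15, limma adjusted p = 0.615), and the other plasmid groups of these genes overlapped. MSH6 (-0.56 ± 0.10, 8.34e-04) and UNG (-0.60 ± 0.16, 0.00991) were lower in ZR75-1 than in the SKBR3-labelled cells, and the UNG call ended with the HSD17B14 arrays alone (-0.54, 0.0966) or the actin covariate (-0.45, 0.274).

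Over both plasmids, 11 members were higher and 17 lower in ZR75-1 than in the SKBR3-labelled cells, against 23% and 26.1% of all tested probe sets. The replication genes, with ODC1 counted among them, made up most of the lower ones: 7 of 30 were higher, 15 lower and 8 did not pass. Of the control genes 4 of 12 were higher, 2 lower and 6 did not pass. The median log2 difference was -0.51 over the replication genes and 0.02 over the control genes, against -0.04 over all tested genes. The sign of the control median turned with median centring (-0.01), while the replication median stayed at -0.43 with quantile normalization and -0.54 with median centring. Without overlap, 8 members were higher and 17 lower, against 19.8% and 22.7% of all probe sets. The actin ratio spanned 2.02 to 2.83 on the ZR75-1 arrays and 2.28 to 3.6 in the SKBR3-labelled cells. With this ratio as a covariate 18 members were called (6 higher, 12 lower). In that fit 828 of all 6251 probe sets were called higher and 922 lower, against 1440 and 1633 in the main fit.

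ODC1 differed most, by -3.24 ± 0.09 or 9.47-fold (limma adjusted p = 5.35e-10), and ranked 9 of 6251 probe sets by p in the line comparison. TYMS (-1.04 ± 0.12, adjusted p = 2.35e-05) and RRM1 (-0.99 ± 0.11, 1.74e-05) were also lower in ZR75-1. RRM2 was higher by 0.31 ± 0.12 (0.0466), a call lost under 14 of 21 alternatives (adjusted p up to 0.417, at 0.18 with the vector arrays alone), among them without the first ZR75-1 HSD17B14 array, the second ZR75-1 vector array, either SKBR3-labelled HSD17B14 array or the second SKBR3-labelled vector array (0.112 to 0.171). Of the control genes, CDKN1A (0.79 ± 0.14, 5.61e-04), CDK4 (0.64 ± 0.10, 1.84e-04), CDKN1B (0.60 ± 0.14, 0.00302) and CCND1 (0.59 ± 0.11, 8.97e-04) were higher in ZR75-1. CCND3 (-0.70 ± 0.11, 1.98e-04) and CCNE2 (-0.70 ± 0.21, 0.0171) were lower, and the CCNE2 call was lost without either SKBR3-labelled HSD17B14 array (0.0625 and 0.0624), with the vector arrays alone (-0.47, 0.251) and with the actin covariate (-0.60, 0.278). The CDKN1A call ended with the HSD17B14 arrays alone (0.49, 0.0790) and the CDKN1B call with the actin covariate (0.47, 0.169). The 2 D cyclins thus stood on opposite sides, but the CCND1 call ended with the HSD17B14 arrays alone (0.21, adjusted p = 0.350) or the actin covariate (0.57, 0.0501), and the CCND3 call with the vector arrays alone (-0.28, 0.169). The CDKN1B, CDC45 and RRM2 arrays of the lines overlapped. CDKN2A was above the floor on 3 of 4 ZR75-1 arrays and on no SKBR3-labelled array. It was at least 1.14-fold higher in ZR75-1 when set against the floor, and did not pass (limma adjusted p = 0.0664). It met the filter on low signals only through its ZR75-1 arrays, so its test cannot be read as support for a line difference.

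**Figure D4:**
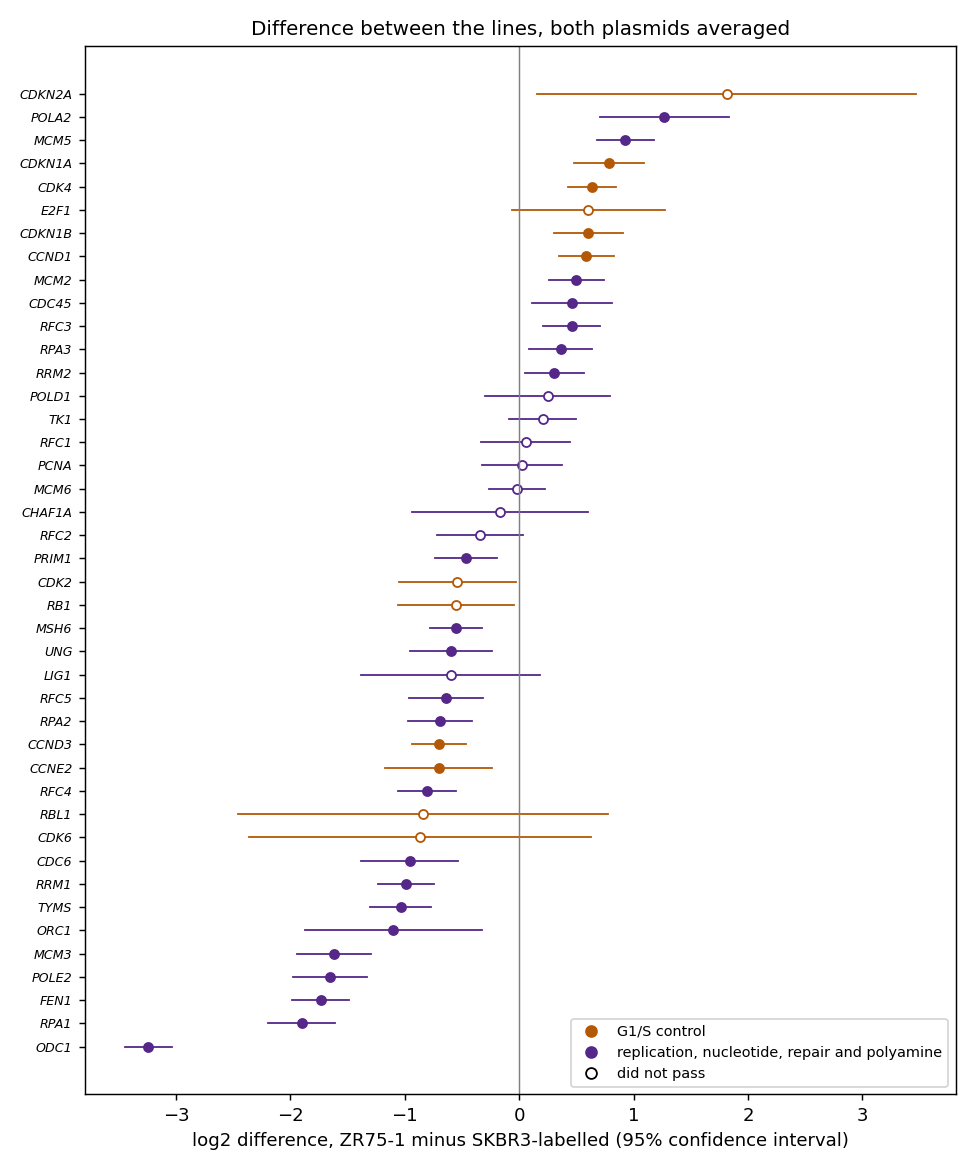
Log2 difference, ZR75-1 minus SKBR3-labelled, of each of the 42 genes over both plasmids, with 95% confidence intervals from limma; filled points passed an adjusted p of 0.05. ODC1 stands apart at -3.24, followed by RPA1 at -1.90 and FEN1 at -1.74, and POLA2 at 1.27 is the highest of the genes that passed.

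Members with and without the E2F letters were set side by side as a description only. In ZR75-1 the median plasmid change was -0.18 over the 14 genes with the motif and -0.04 over the 22 without it, and in the SKBR3-labelled cells it was 0.04 and -0.08. Between the lines the medians were -0.58 with the motif and -0.41 without it. The ranges of the motif genes, from -0.86 to 1.52 in ZR75-1 and from -1.65 to 1.27 between the lines, held values of either sign. POLA2 and MCM3, each with an E2F motif shown above, lay on opposite sides of 0 between the lines.

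Of 59 further genes of the pathway, 40 were tested. For the plasmid limma called 0 of the 40 within either line, where it called 1.52% of all probe sets in ZR75-1 and 0.992% in the SKBR3-labelled cells. At an unadjusted p under 0.05, 2 were higher and 2 lower in ZR75-1 (8.35% and 9.61% of all probe sets), and 3 were higher and 2 lower in the SKBR3-labelled cells (4.96% and 3.82%). Between the lines 5 were higher and 17 lower in ZR75-1, again against 23% and 26.1% of all probe sets. The higher ones were POLD4, RBL2, POLE, TOP1 and GINS2. CCNA1, the cyclin A of the germ line, was under the floor on all ZR75-1 arrays (5, 13.9, 15.1 and 1.3). It read 215.3 and 116.9 with HSD17B14 and 209 and 243.7 with vector in the SKBR3-labelled cells. CCNA1 passed the filter on low signals only through the SKBR3-labelled arrays, where it is high. Its call, counted in the 17 lower, is therefore not taken as support for a line difference. CCNA2, the cyclin A of S phase, was lower in ZR75-1 (-1.26 ± 0.12, 3.52e-06), as was GMNN, which encodes the licensing inhibitor geminin (-1.79 ± 0.12, 3.34e-07). RBL2, which encodes the pocket protein p130, was higher in ZR75-1 (0.00259), where it read 41.4 to 62.4, against 13.6, 17.6, 28.2 and 13.1 in the SKBR3-labelled cells, mostly not above the floor. CDKN1C, which encodes p57, was lower in ZR75-1 (5.61e-04), where 3 of its 4 arrays were under the floor (13, 9.8, 16.6 and 18.6), against 43 to 52.7 in the SKBR3-labelled cells.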

How the data were processed

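The values were the signal intensities deposited by the authors, on a linear scale, with a single value for each probe set on each array. Per the submitters' processing notes they come from MAS5, whose version is not given in the sources used here. Every array has the same trimmed mean (100.13 to 100.14 without the outer 2% of probe sets), as computed from the values. Of 8793 probe sets, 47 controls were left out. Genes were named from the platform annotation, and of the rest 7840 probe sets carried 1 symbol, 388 several and 518 none here.

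Signals under 1 (2.41% to 7.13% per array) were set to 1 before taking log2. A probe set was tested if it exceeded the array's own 40th percentile on at least 2 arrays (6251 probe sets, which held 5552 genes). The model, run in limma 3.58.1 under R 4.3.3, estimated 4 group means over all 8 arrays with eBayes and a trend (4 residual and 7.39 prior degrees of freedom). Contrasts were HSD17B14 minus vector in each line, their mean, their difference, and ZR75-1 minus SKBR3-labelled. A call is a Benjamini-Hochberg adjusted p under 0.05 over all 6251. An error after a log2 value is limma's standard error. For a gene with several tested probe sets, the brightest on average (log2) was used. Levels were not compared between probe sets, and the number of arrays limits the precision. Signals under 17.6, the highest of the arrays' 40th percentiles, are called under the floor.

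Members and lists were chosen with earlier results of these data known. Signals on every array are given for members called in any contrast, for the member of each role with the largest moderated t in each line's plasmid contrast, and for every control gene. The fit was tested on simulated data. Alternatives were scaling, filter, floor, pseudocount, variance prior, probe set, arrays in the fit, blocks for replicate number and spike-in level, and the actin ratio as a covariate. Promoters were matched by symbol to RefSeq (GRCh38.p14). Figures were drawn with matplotlib 3.10.9.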

Additional observations from a re-analysis of the deposited data

Results flagged for a closer look

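ODC1 was singled out because the test of the difference between the lines passed. The plasmid effect in ZR75-1 minus that in the SKBR3-labelled cells was 1.00 on the log2 scale (limma with Benjamini-Hochberg adjustment, adjusted p = 0.0441). Both HSD17B14 arrays were above both vector arrays in ZR75-1 and below them in the SKBR3-labelled cells. The range of adjusted p over its 19 alternatives ran from 0.0292 to 0.996.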

How the results depend on the processing

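The members' medians for the plasmid, which have no test, turned sign with the scaling. With median centring they were 0.06 in ZR75-1 (-0.14 as deposited), 0.07 over both lines (-0.07) and 0.02 for the difference (-0.11). With quantile normalization the SKBR3-labelled median was -0.02 (0.02 as deposited) and that for the difference 0.003. Among the 42 members, the count called in ZR75-1 (0) became 2 when 32 was added to each signal or ZR75-1 was fitted alone. With 32 added, 90 of all 6251 probe sets were called higher in ZR75-1 and 172 lower. With ZR75-1 fitted alone, 87 of 5428 were called higher and 176 lower. The 1 call in the SKBR3-labelled cells became 0 with median centring, without the trend or with the actin covariate. The 1 call over both lines became 0 with median centring, a common floor or no trend, and 2 with 32 added. In the fit with 32 added, 102 of all 6251 probe sets were called higher over both lines and 63 lower. The 1 call for the difference became 0 with quantile normalization, median centring, no filter, no trend, the spike-in block or the actin covariate. The 28 line calls became 18 with the actin covariate, 18 with HSD17B14 arrays only and 22 with vector arrays only. The highest count over the alternatives was 31. Calls over all 6251 probe sets fell too, from 1440 higher and 1633 lower in the main fit. They were 828 and 922 with the actin covariate, 943 and 1131 with HSD17B14 arrays only, and 1224 and 1292 with vector arrays only. Leaving out 1 array in turn gave 0 to 0 calls in ZR75-1, 0 to 1 in the SKBR3-labelled cells, 0 to 2 over both, 0 to 0 for the difference and 24 to 28 for the line. With 1 array left in a group, that array is assumed to vary like the others. The causes of these shifts were not tested.

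Same-numbered arrays of a line did not deviate together (correlation -0.04 in ZR75-1 and -0.04 in the SKBR3-labelled cells), so the numbers were not taken to pair them. The spike-in controls, however, read high on the second array of every group but ZR75-1 vector. Their mean log2 there was 7.23, 6.61 and 6.67, against 4.01 to 5.31 on the other arrays. With the replicate number as a block, 0, 1, 1, 1 and 27 members were called in ZR75-1, in the SKBR3-labelled cells, over both, for the difference and for the line. Over all 6251 probe sets the block moved the ZR75-1 calls from 46 higher and 49 lower to 83 and 104. Over both lines the calls moved from 76 and 18 to 103 and 46, and for the line from 1440 and 1633 to 1423 and 1630. Median centring moved the median of all tested genes to 0.16 in ZR75-1 (-0.05 as deposited) and to 0.12 over both lines (-0.02). The members' line median of -0.50 ran from -0.53 to -0.21 over the alternatives. Signals near the floor (CDK6, CDKN2A, RBL1, ORC1) limit what can be read from those genes.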
